A study of Mus musculus with 4 samples.

Results

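Growth-type cytokines of activated helper T cells were examined as 9 gene rows of the deposited count tables: Il2, Il3, Csf2, Il21, Tnf, Lif and Il10, and the antisense genes Gm12223 and Gm12534, which are annotated on the other strand at Csf2 and Il21. The rows were chosen by gene symbol, and all 9 were found among the 50600 genes of the tables. RNA was sequenced from T helper 2 (Th2) cells, a CD4 lineage known for making interleukin-4 and interleukin-13. The cells were primary ones from C57BL/6NJ mice, and the 4 libraries are the biological replicates of a single group, with sex not collected and age unknown. The file headers name a time point of 48 hours. The labels give a single donor identifier with separate biosamples, so the error terms measure the spread between these libraries, which may be technical. No treatment, genotype or time was compared, so levels were set side by side between rows within a library and between libraries.

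An activated helper T cell releases a burst of small secreted proteins. Interleukin-2 (Il2) drives the growth of T cells themselves. Interleukin-3 (Il3) and the granulocyte-macrophage colony-stimulating factor (Csf2) act on blood cell precursors and myeloid cells and lie side by side on mouse chromosome 11. Interleukin-21 (Il21) acts on B cells and T cells, and tumour necrosis factor (Tnf) on many tissues. Leukaemia inhibitory factor (Lif) acts on cells that carry its receptor chain Lifr together with gp130, and interleukin-10 (Il10) restrains inflammation. Their genes are switched on by calcium and NFAT together with AP-1 and NF-kappaB, and many of their mRNAs are short-lived because AU-rich elements in the 3′ UTR recruit decay factors such as Zfp36.

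The libraries held 1785970 to 2271993 counts. The 7 cytokine rows together held 129 to 274 counts in a library, which is 0.00585% to 0.0121% of the total, so single counts weigh heavily. The ribosomal RNA row CT010467.1 with its partner Gm42418 took 3.25% to 15.9% of counts, the most in replicate 4. The tables count a pair on the strand of the annotated gene under the strand setting 1 of the counting tool. The orientation of the library kit is not given in the sources used here, and counts made with the other setting were not analysed here. A count is therefore the number assigned to the named row and need not come from that gene's own transcript. Genes that share no exon base with the other strand held only 5.48% to 7.53% of the counts of a library. Of protein-coding genes, 22.1% share such a base. The non-coding row was denser per kb in all 4 libraries in 79.9% of 1855 pairs of a coding gene and a non-coding one opposite. Whether the strand setting fits the kit was not tested. Every level, order and ratio of rows given for these genes is therefore one of counts as assigned, and would differ if the assignment of strands did. In bulk RNA, fewer cells making a cytokine and less RNA per cell cannot be told apart.

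All 11 T cell markers exceeded 3 counts in every library, as did 6 of 8 Th2 markers and 5777 of the 21764 protein-coding genes. Il5 was at 0 in all 4 libraries (Gm12214, opposite it, had 72, 95, 48 and 46 counts) and Il1rl1 had 1 count in 1 library. Of these markers, 2 of the 11 and 4 of the 8 share exon bases with a gene on the other strand. Cd247, at 168 TPM the largest part of the summed T cell level of 240 to 294 TPM, shares 3007 bp with Pou2f1, and Ptgdr2 shares 1031 bp with Ccdc86. Cd3e and Gata3 lie opposite Gm48719 and Gm13256, which had 1692 to 2361 and 2048 to 2625 counts. The other 9 T cell markers share no exon base. Of 24 markers of other cell types, 14 were at 0 in all libraries, as were 9293 of the 21764 protein-coding genes. Among the 14 were Ms4a1 (B cells), Adgre1 and Cd14 (macrophages), Ncr1 (NK cells), Fcer1a and Mcpt8 (mast cells and basophils) and Ly6g (neutrophils). The summed level of all 24 was 203 to 212 TPM (a count per exon length, scaled to a fixed sum in each library). Without Csf1r, which shares 871 bp of exon with Hmgxb3 on the other strand, it was 8.91 to 13.1 TPM. Cd79a (B cells, 4.09 TPM ± 1.84), Ighm (B cells, 2.25 ± 0.951) and Cd68 (macrophages, 1.71 ± 0.710; SD, n = 4) were the highest of the rest. Of the mast cell and basophil markers, Hdc had 10, 5, 10 and 4 counts and Cpa3 1 count in 1 library. The part of such cells in the cytokine rows was not tested.

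Il2 was the highest of the 7 cytokine rows. It had 158, 133, 71 and 112 counts in replicates 1 to 4, or 91.3, 81.9, 42.2 and 86.9 TPM, a mean of 75.5 ± 22.6 (SD, n = 4). Its gene lies at chr3:37120523-37125959 on the minus strand (mm10), with 4 exons and 1144 bp of exon. Replicates 1, 2 and 4 lay close together, and replicate 3 lay below them. Il2 alone made up 68.8% ± 4.85 of the summed TPM of the 7 rows, between 62.4% and 74.2% in every library. By summed counts, which favour long genes, its share was 57.2% ± 3.43.

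Il3 had 15, 14, 8 and 8 counts, or 15.8, 15.7, 8.64 and 11.3 TPM, a mean of 12.8 ± 3.49 (SD, n = 4). The gene spans chr11:54265303-54267277 on the minus strand, and 15635 bp separate it from Csf2. Replicates 1 and 2 were high and replicates 3 and 4 low, but the 95% Poisson intervals of its highest and lowest library, which cover counting error only, overlapped at 8.82 to 26.0 and 3.73 to 17.0 TPM.

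Csf2 had 12, 17, 3 and 4 counts, or 9.91, 15.0, 2.55 and 4.44 TPM, a mean of 7.96 ± 5.61 (SD, n = 4), on chr11:54247271-54249667 of the minus strand. Replicates 1 and 2 were both above replicates 3 and 4. The Poisson interval of replicate 2 (8.72 to 24.0 TPM) did not overlap that of replicate 3 (0.526 to 7.45 TPM). Here, and for Tnf and Lif below, these are the highest and lowest libraries, picked after the values were seen. Such a comparison is not a test. Replicate 3 stood at the floor of 3 counts that a count of 0 would still allow.

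Tnf, on chr17:35199381-35202007, had 6, 20, 5 and 11 counts, or 2.42, 8.59, 2.07 and 5.96 TPM (4.76 ± 3.10, SD, n = 4). Replicates 2 and 4 were high, and the Poisson intervals of replicates 2 and 3 did not overlap (5.25 to 13.3 and 0.673 to 4.84 TPM). Its neighbours on the chromosome are the related cytokine genes Ltb and Lta, whose proteins join as lymphotoxin. They stood at 4.51 ± 0.429 and 4.18 ± 1.48 TPM (SD, n = 4), so near the level of Tnf.

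Il21, on chr3:37222759-37232636, had 44, 32, 30 and 23 counts, but over 5259 bp of exon these were only 5.53, 4.28, 3.88 and 3.88 TPM (4.39 ± 0.781, SD, n = 4). Lif, on chr11:4257557-4272514, had 38, 26, 12 and 23 counts, or 5.77, 4.21, 1.87 and 4.69 TPM (4.14 ± 1.64, SD, n = 4). Il21 had the lowest coefficient of variation of the 7 rows, 17.8%, against 27.2% to 144% for the others. This measure includes counting error, which weighs more where counts are few. Mean counts were 32.25 for Il21, 118.5 for Il2 (coefficient 29.9%) and 1.0 for Il10 (144%), so the order is not one of stability alone. For Lif, replicate 3 was again the lowest, and its Poisson interval (0.969 to 3.27 TPM) did not overlap that of replicate 1 (4.08 to 7.92 TPM).

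Il10, on chr1:131019845-131024974, had 1, 3, 0 and 0 counts. No library exceeded 3 counts. A count of 0 allows up to 3 counts, or 1.56 TPM in replicate 3 and 2.03 TPM in replicate 4, so a level of about 1 TPM was not detectable at this depth.

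**Figure D1:**
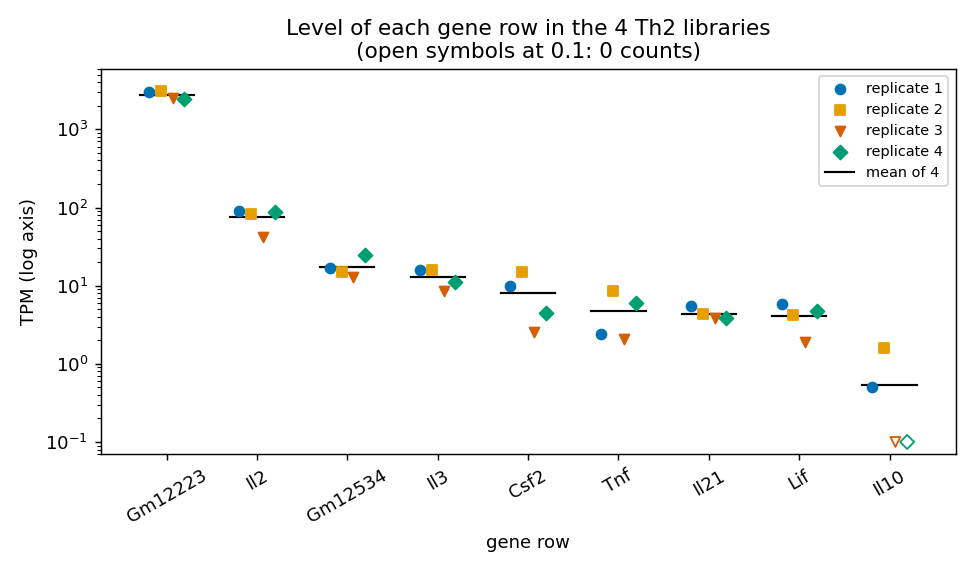
Level of each of the 9 gene rows in TPM on a log axis, with a symbol for each Th2 library and a line at the mean of 4. Gm12223 stands at 2773 TPM, far above Il2 at 75.5, and Il10 has open symbols where its count was 0.

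The order of the 7 cytokine rows by mean TPM was Il2, Il3, Csf2, Tnf, Il21, Lif and Il10. Of the 6 pairs of neighbours in that order, 3 differed in the same direction in all 4 libraries. The pairs and their direction were set by the same levels that are compared here. Il2 exceeded Il3 by 2.44 ± 0.290 on the log2(TPM + 1) scale, Il3 exceeded Csf2 by 0.83 ± 0.613, and Lif exceeded Il10 by 1.80 ± 0.674 (SD, n = 4; exact two-sided sign-flip p = 0.13 for each, 0.25 after Benjamini-Hochberg adjustment over the 6 pairs). No smaller p can come from this test on 4 libraries. Csf2 over Tnf (0.57 ± 0.863, 3 of 4 libraries, exact p = 0.375), Tnf over Il21 (-0.06 ± 0.876, 2 of 4, exact p = 0.875) and Il21 over Lif (0.13 ± 0.436, 2 of 4, exact p = 0.875) were smaller than their own spread, so Csf2, Tnf, Il21 and Lif were not separated from their neighbours in this part of the order. By this measure Tnf lay below Il21 on average, although its mean TPM was higher. The order depends on the division by length. On the log2(CPM + 1) scale Tnf lay below Il21 in every library (-1.56 ± 0.904, exact p = 0.13), and Il3 over Csf2 was 0.44 ± 0.542 (exact p = 0.25; SD, n = 4). By share of summed counts, Il21 (16.3%) and Lif (11.6%) stood above Il3 (5.45%) and Csf2 (3.96%).

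At least 1 TPM in all 4 libraries was reached by 6 of the 7 cytokine rows, all but Il10, against 21.8% of the 21764 protein-coding genes. For short rows this threshold lies below the floor: 3 counts are 3.15 to 4.23 TPM for Il3 and 2.48 to 3.33 for Csf2. More than 3 counts in every library were held by 5 of the 7 rows and 5777 of the 21764 protein-coding genes. Of 26 other cytokine genes of helper cells, 11 reached it. The highest were Il4 (18.5 TPM ± 2.46), the signature cytokine of Th2 cells, Cd40lg (17.6 ± 7.36), the ligand by which helper cells activate B cells, Il13 (10.8 ± 3.89), a Th2 cytokine, and Tnfsf11 (8.65 ± 3.73; SD, n = 4), the RANK ligand. Il5, Il9, Il17a, Il17f, Il22, Il24 and Xcl1 were at 0 in all libraries. Of the 26, 3 share exon bases with a gene on the other strand: Il5, Il16 and Xcl1. Gm12214, opposite Il5, had 72, 95, 48 and 46 counts. Stard5, opposite Il16, had 1664 to 2558, against 14 to 21 for Il16. By counts as assigned to rows, Il2 thus stood above each of these 26 genes by mean TPM. Whether the order holds for the transcripts was not tested.

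Of 14 receptor genes, 4 reached 1 TPM in all libraries, against 21.8% of all protein-coding genes. The 4 were Il2ra, the high-affinity interleukin-2 receptor chain of activated T cells (17.4 TPM ± 3.35), Il21r (4.17 ± 1.02), Il2rb (3.44 ± 1.33) and the common gamma chain gene Il2rg (2.31 ± 0.843; SD, n = 4). Il2rg had only 12, 9, 5 and 5 counts. Csf2rb, which encodes the beta chain shared by the interleukin-3, GM-CSF and interleukin-5 receptors, and Csf2rb2, which in mouse encodes a beta chain specific to interleukin-3, were at 0 counts in all libraries, as were Lifr and Tnfrsf1a, each of which allows up to 3 counts. None of the 14 shares an exon base with a gene on the other strand. Their median level was 0.448 TPM, against 0.115 TPM for all protein-coding genes and 4.76 TPM for the 7 cytokines.

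Of 22 genes for upstream signal and transcription factors, 11 reached 1 TPM in all libraries, against 21.8% of all protein-coding genes. Highest were Junb (116 TPM ± 10.8) and Jund (33.0 ± 6.89), both AP-1 subunits, and Batf (27.8 ± 2.32) and Irf4 (15.3 ± 2.54), partner factors at T cell cytokine genes (SD, n = 4). Junb shares 173 bp of exon with Prdx2 on the other strand. Prdx2 had 38, 40, 33 and 29 counts, against 456, 355, 390 and 279 for Junb. Jund is another gene whose opposite row held most counts: Gm11175 had 22264, 18290, 20488 and 13040, against 109, 73, 69 and 56 for Jund.

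Of the 1144 bp of Il2 exon and the 629 bp of Il3 exon, none lie opposite an exon of another gene, and they are the highest of the 5 cytokine rows of that kind. Their promoters are shown for the 250 bases before the RefSeq start (GRCm38.p6, the build of mm10), read along the gene, 5′ to 3′. Capitals mark GGAAA, the core bound by NFAT and present in many NF-kappaB sites, on either strand (TTTCC when read on the other one).

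Il2, chr3:37125955-37126204, minus strand: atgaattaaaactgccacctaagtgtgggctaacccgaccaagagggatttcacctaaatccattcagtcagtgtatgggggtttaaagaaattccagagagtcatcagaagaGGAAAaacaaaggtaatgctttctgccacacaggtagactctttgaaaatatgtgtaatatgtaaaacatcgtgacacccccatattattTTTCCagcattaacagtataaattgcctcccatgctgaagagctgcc

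Il3, chr11:54267280-54267529, minus strand: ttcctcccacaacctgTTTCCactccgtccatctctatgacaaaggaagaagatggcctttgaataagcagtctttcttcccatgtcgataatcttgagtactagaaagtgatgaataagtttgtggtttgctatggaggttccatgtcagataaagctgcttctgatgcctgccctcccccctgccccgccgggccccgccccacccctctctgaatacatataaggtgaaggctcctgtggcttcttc

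The core occurs 2 times in the Il2 window and 1 time in the Il3 window. It occurs 3 times in the windows of Il21 and Tnf, 2 times in that of Csf2 and 1 time in that of Lif. At least 1 occurrence was found in 55.6% of 32841 promoter windows of this length and 3 or more in 6.39%. The AP-1 motif TGANTCA, searched on both strands, was found in the Lif window and in 6.75% of all windows. It was not found in these windows of the other 5 genes. The RefSeq start of Csf2 lies 232 bp from the start in the deposited tables, so its window is not that of the deposited gene model, and Il10 was not matched in the promoter table.

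The AU-rich pentamer ATTTA, part of the element by which cytokine mRNAs are marked for decay, was dense in the 3′ UTRs of most of the 7 genes. Csf2 had 9 copies in 317 bp, or 28.4 per kb, above 99.9% of 1909 genes with a 3′ UTR of like length (0.8 to 1.25 times). Il2 had 12.05 per kb (above 99.7% of like length), Tnf 10.5 (99.7%), Il3 9.90 (92.3%, on 1 copy in 101 bp), Il10 8.50 (98.4%), Il21 3.49 (86.7%) and Lif 2.20 (63.3%). The longer element TTATTTATT occurred 5 times in Tnf, 4 times in Csf2, 2 times in Lif and 1 time each in Il2 and Il21. It was found in 7.72% of the 3′ UTRs of 20831 genes. At like length the share was 4.10% for Tnf, 2.41% for Csf2, 14.8% for Lif, 3.37% for Il2 and 12.9% for Il21. Sites of 30 bases from the transcript sequences, each the window with the most ATTTA in its 3′ UTR, show the contrast between overlapping repeats and a lone copy, with ATTTA in capitals.

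Csf2, chr11:54247329-54247358, minus strand: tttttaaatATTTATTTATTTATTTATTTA

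Tnf, chr17:35199679-35199708, minus strand: attATTTAttATTTATTTAttATTTATTTA

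Il2, chr3:37121040-37121069, minus strand: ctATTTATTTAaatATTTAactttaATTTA

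Il10, chr1:131024372-131024401, plus strand: cctcgtttgtacctctctccgaaatATTTA

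The Csf2 and Tnf sites hold 5 copies each, that of Il2 holds 4 and that of Il10 holds 1. Of 10 genes for factors that bind such elements or degrade cytokine mRNAs, 6 reached 1 TPM in all libraries, against 21.8% of all protein-coding genes. Hnrnpd (12.4 TPM ± 1.92) and Khsrp (5.01 ± 0.995), which bind AU-rich elements, and Zfp36l1 (2.62 ± 1.00) and Zfp36l2 (2.59 ± 0.368), relatives of Zfp36, were the highest (SD, n = 4). Zfp36 itself had 5, 1, 4 and 1 counts, against 173, 183, 186 and 126 for Gm44710 opposite it, a pair named after its values were seen. Of the others just named, Zfp36l1 had 14, 14, 5 and 10 counts against 9498, 8730, 10104 and 7121 for Gm26669, Hnrnpd had 87 to 167 against 1537 to 2931 for Gm17092, and Khsrp had 21 to 37 against 114 to 237 for Gm17949. From highest to lowest pentamer density, the mean levels were 7.96 TPM for Csf2, 75.5 for Il2, 4.76 for Tnf and 12.8 for Il3. Then came 0.529 TPM for Il10, 4.39 for Il21 and 4.14 for Lif. A relation between pentamer density and level was not tested.

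**Figure D2:**
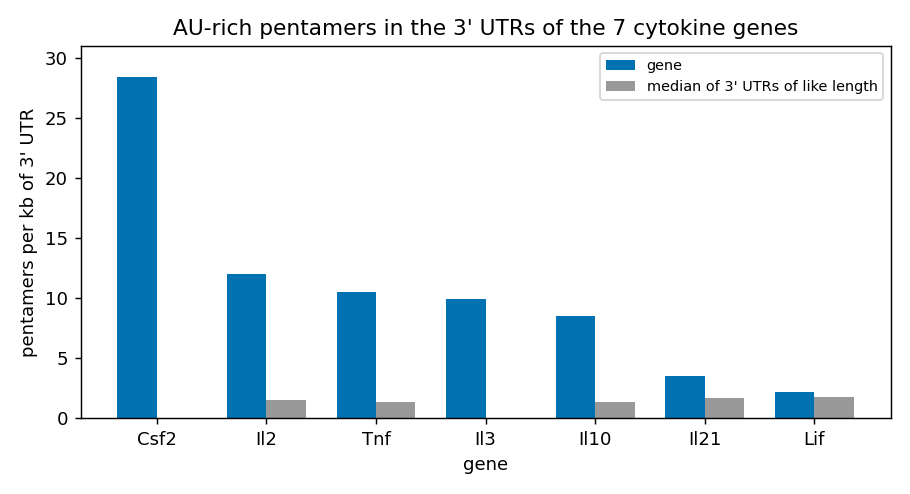
Copies of the AU-rich pentamer per kb of 3′ UTR for the 7 cytokine genes (blue) beside the median of genes with a 3′ UTR of like length (grey). Csf2 reaches 28.4 per kb and Lif 2.20, while the grey medians lie at 1.73 or below and at 0 for Csf2 and Il3.

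The row with by far the most counts was Gm12223, an antisense gene at Csf2. It had 2423, 2309, 1981 and 1445 counts in replicates 1 to 4, or 3032, 3079, 2550 and 2429 TPM, a mean of 2773 ± 331 (SD, n = 4). This was above 99.9% of all 50600 genes by mean TPM. Its counts were 202, 136, 660 and 361 times those of Csf2 in replicates 1 to 4. Per kb of exon Gm12223 held 3863 ± 830 counts and Csf2 11.3 ± 8.35, and the log2 ratio with 1 count added to each row was 8.52 ± 0.839, positive in 4 of 4 libraries (SD, n = 4; exact two-sided sign-flip p = 0.13). The rows did not overlap in any library. By counts, the non-coding row was the higher one in all 4 libraries in 73.7% of the 1855 pairs of a protein-coding gene and a non-coding gene with exons opposite it that had at least 10 counts in sum.

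Gm12223 (chr11:54247600-54254495, plus strand) has 3 exons, and only the first meets Csf2. Of its 528 bp of exon, 96 bp (18.2%) lie opposite Csf2, in the last Csf2 exon. All 96 bases are coding and run from coding base 319 to 414 of the 423 of transcript Csf2-201, counted from the start codon without the stop codon. They are shown because they are the only exon bases that both rows are annotated on. The sequence is written along Csf2, 5′ to 3′, from the GENCODE vM21 transcript, whose exons for all 9 rows equal those of the deposited tables.

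Csf2, chr11:54247600-54247695, minus strand: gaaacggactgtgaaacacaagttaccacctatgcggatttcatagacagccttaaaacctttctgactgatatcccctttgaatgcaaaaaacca

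The rest of Gm12223 exon lies outside every Csf2 exon, and the tables do not say in which exon the counts fell. Which transcript gave the counts of Gm12223 was not tested. Such a direction is common in these tables: the non-coding row was denser per kb in all 4 libraries in 79.9% of the 1855 pairs, with a median log2 ratio of 5.51. The Gm12223 ratio was higher than that of 83.5% of these pairs.

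Gm12534 (chr3:37231333-37232469, plus strand) had 12, 10, 9 and 13 counts, or 16.9, 15.0, 13.04 and 24.6 TPM (17.4 ± 5.06, SD, n = 4), over 469 bp of exon that lie entirely opposite Il21 exon. By counts it was below Il21 in every library, at 0.273, 0.313, 0.3 and 0.565 of the Il21 count. Per kb it was above Il21 in every library, with 23.5 ± 3.89 against 6.13 ± 1.66 counts per kb and a log2 ratio of 2.04 ± 0.455 (SD, n = 4; exact two-sided sign-flip p = 0.13). As a ratio of counts without length, the log2 value was -1.45, so the direction depends on the scale. The per-kb ratio was higher than that of 21.9% of the 1855 pairs.

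The shared bases also differ in kind. Only 35 of the 469 bp meet the exons of the spliced coding transcripts Il21-201 and Il21-202, all of them coding, from coding base 97 to 131 of 438 in Il21-201. All 469 bp meet the retained-intron transcript Il21-203, a single exon of 2335 bp. The 35 bases, written along Il21, are shown for comparison with the 96 of Csf2.

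Il21, chr3:37232435-37232469, minus strand: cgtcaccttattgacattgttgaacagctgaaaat

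**Figure D3:**
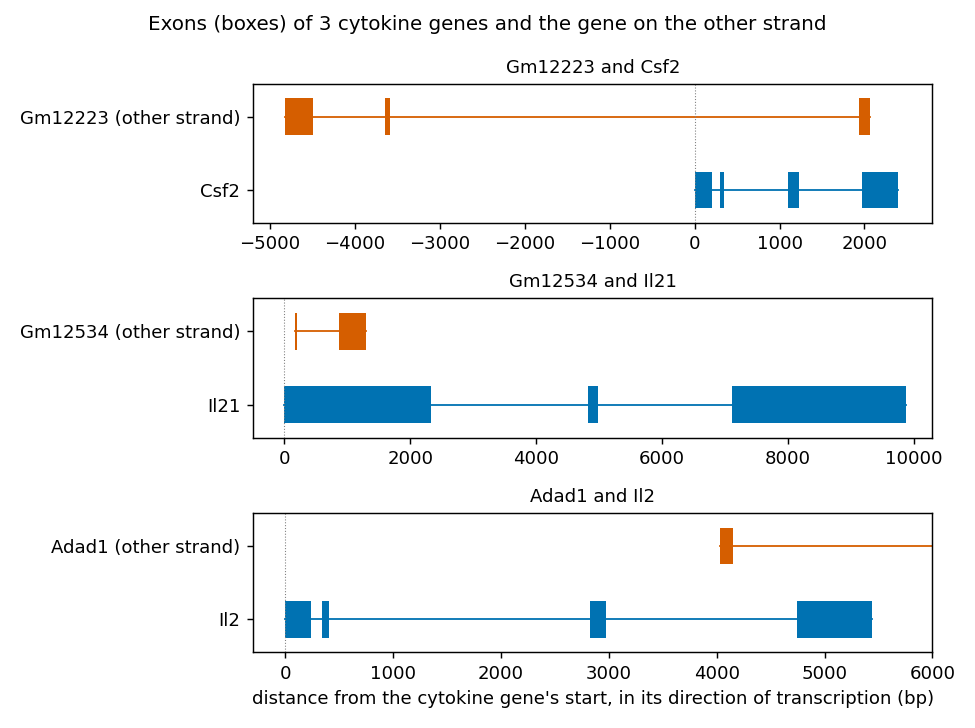
Exons (boxes) of Csf2, Il21 and Il2 in blue and of the gene on the other strand in orange, by distance in bp from the cytokine gene's start along its direction of transcription. Gm12223 meets the last Csf2 exon, Gm12534 lies inside the first block of Il21 exon, and the last exon of Adad1 lies in an Il2 intron (its other exons lie beyond the plotted range).

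**Figure D4:**
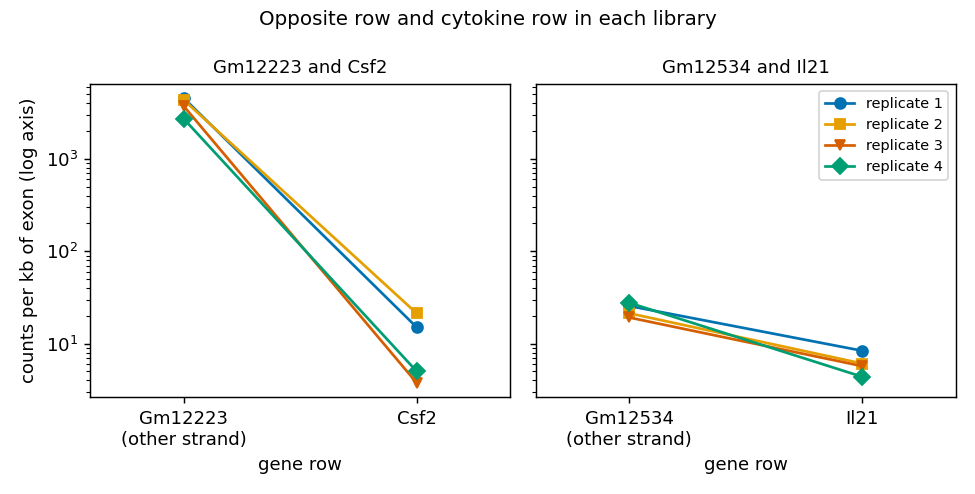
Counts per kb of exon on a log axis for each opposite row and its cytokine row, with a line per library. Gm12223 averaged 3863 counts per kb against 11.3 for Csf2, and Gm12534 averaged 23.5 against 6.13 for Il21.

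Csf2 and Il21 are the 2 of the 7 cytokine genes that share exon bases with a gene on the other strand, as do 22.1% of protein-coding genes. Il2 shares none, but Adad1 reaches into its span from the other strand. The last of the 13 exons of Adad1 (chr3:37121808-37121930, 123 bp, plus strand), a gene known in mouse for its RNA-binding protein of the testis, lies inside the last Il2 intron. Adad1 had 824, 756, 634 and 469 counts, or 166, 163, 132 and 127 TPM (147 ± 20.4, SD, n = 4), above the Il2 row in every library. No exon of Adad1 shares a base with an exon on the other strand. The tables sum all 13 exons, so how many of these counts fell in the exon within Il2 was not tested. Adad1 was singled out after its values were seen.

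In replicate 3 the cytokine rows were low together, a pattern noticed after the values were seen and given with no test. Il2 stood at 42.2 TPM there, against 86.7 ± 4.70 on average in the other 3 libraries (SD, n = 3), which is 48.7% of that mean. Csf2 stood at 26.1% of the mean of the others, Tnf at 36.7%, Lif at 38.3%, Il3 at 60.7% and Il21 at 84.9%, and Il10 had 0 counts in replicates 3 and 4. Thus 6 of 7 rows had their lowest TPM in replicate 3, as had 35.6% of the 5064 genes tested and 58.1% of the 1794 tested genes that share no exon base with the other strand. For Il21, replicates 3 and 4 were nearly equal, at 3.877 and 3.882 TPM. The median log2 ratio of replicate 3 over the mean of the others, with 1 TPM added, was -1.02 for the 7 cytokines, -0.40 for the 11 T cell markers, -0.29 for those 1794 genes and -0.06 for all genes tested. It was 0.0 for the 26 other cytokine genes, of which 7 were at 0 throughout. Of the 11 T cell markers 8 were lowest in replicate 3, and of the other cytokine genes 7 of 26. The summed TPM of the 7 rows was 61.2 in replicate 3 and 117 to 131 in the others.

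Replicate 3 also differed in another measure. Genes that share no exon base with the other strand held 5.48% of its counts, against 6.67% to 7.53% in the other libraries. Scaled to the summed density of protein-coding genes of that kind, Il2 in replicate 3 stood at 63.2% of the mean of the others, Lif at 49.98%, Csf2 at 33.4% and Il3 at 78.7%, each still the lowest, while Il21 was lowest in replicate 4 and Tnf in replicate 1. With DESeq2 size factors 4 of the 7 rows were lowest in replicate 3, with TMM-normalized CPM 5. The part of this share in the low cytokine counts was not tested. Gm12223 did not share the pattern, at 89.6% of the mean of the others, and was lowest in replicate 4.

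**Figure D5:**
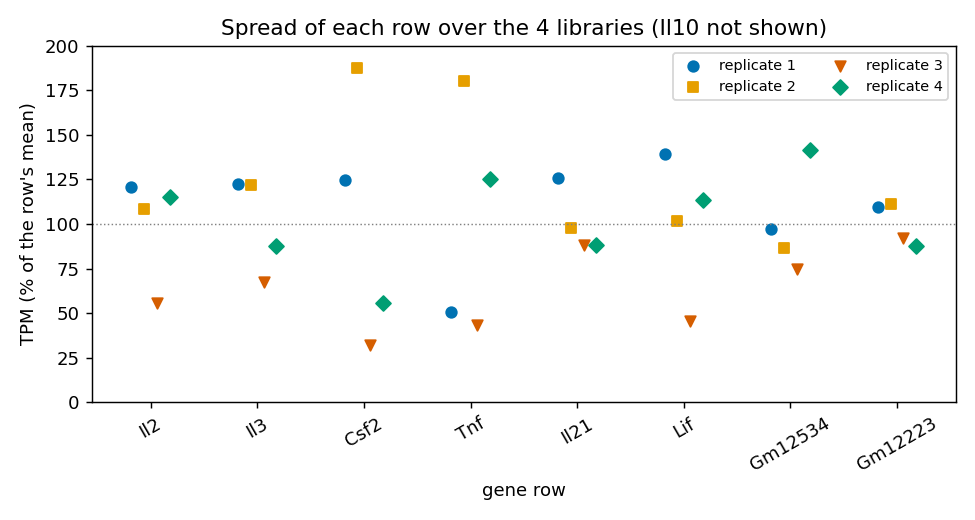
TPM of each row in each library as a percent of the row's mean of 4, for the 6 cytokine rows with counts in all libraries and for the 2 antisense rows. Replicate 3 (triangles) is lowest for all 6 cytokine rows and for Gm12534, but not for Gm12223. For Il21 it is nearly equal to replicate 4 (3.877 and 3.882 TPM).

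Across all genes, 23 of 5064 tested (0.454%) varied between replicates beyond genes of like abundance by edgeR's goodness of fit at an adjusted p of 0.05. Of the 9 rows, 4 passed the filter on low counts (Il2, Il21, Lif and Gm12223) and 0 of them were called. At an unadjusted p under 0.05 there were 260 of the 5064 genes and 1 of the 4 rows, Il2, with an edgeR p of 0.0081 and a Benjamini-Hochberg adjusted value of 0.463, which ranged from 0.1091 to 0.9999 over the alternatives. Without replicate 3 the unadjusted edgeR p of Il2 was 0.835. Lif had an adjusted p of 0.984 and Il21 and Gm12223 of 0.9999 (edgeR, Benjamini-Hochberg). The other 5 rows had too few counts to be tested with the filter, and with none all 9 were tested, 0 were called and 3 (Il2, Csf2 and Tnf) had an unadjusted edgeR p under 0.05, as had 748 of 17327 genes.

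The profile of Il2 over the 4 libraries was most like those of Snx5 (79, 67, 34 and 54 counts), Cox7b (26, 21, 11 and 19) and Nol8 (27, 22, 11 and 20), at root-mean-square distances of 0.026, 0.031 and 0.036 on the log2 scale, where the median of the other 5063 genes tested was 0.448. That of Gm12223 was most like Serpinc1 (355, 343, 286 and 211) and Dxo (176, 172, 147 and 107), each at 0.014 against a median of 0.206. Over 4 libraries this is a description only.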

How the data were processed

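Mouse Th2 RNA gave 4 libraries, put in 1 group by the cell type label, with replicate numbers from the labels. Each deposited table gives raw counts of pairs by gene, made per the file headers with featureCounts 1.4.6-p4 on pairs with both ends mapped, strand setting 1, exons summed by gene, GENCODE vM13, mm10. The assay label reads total RNA and the linked protocol names polyadenylated RNA. The aligner version and the kit orientation are not given in the sources used here. TPM was computed from these counts and the deposited exon length (bp). GENCODE vM21 gave names, types and transcripts, and 224 of 50600 genes had no match.

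Replicate variation was tested in edgeR 4.0.16 (R 4.3.3, limma 3.58.1) with a goodness-of-fit test of a model that holds only a mean. It used trended dispersion, TMM factors, filterByExpr and Benjamini-Hochberg adjustment. A trial on simulated data used a common dispersion for all genes and changed only genes with higher counts. Its outcome is not reported here. Differences within libraries used exact sign-flip permutation tests. Poisson intervals (95%) and the floor of 3 counts cover counting error only. DESeq2 1.42.0 gave size factors; SciPy 1.17.1 and pandas 2.3.3 (Python 3.11.15) served for the other steps. The rows and gene lists were chosen with earlier results of these data known. Named are all 9 rows, the 4 highest of each list and list genes at 0, gene neighbours, genes opposite, and the 3 nearest profiles of Il2 and Gm12223, of which 1 gene is not reported here. Alternatives were other scalings, pseudocounts (0.1), filters and dispersions, and leaving out each replicate.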

Additional observations from a re-analysis of the deposited data

Results flagged for a closer look

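Of 28 values checked over the 4 libraries, 1 stood apart in a single library. The share of counts in CT010467.1 and Gm42418 was 4.54%, 3.25%, 5.02% and 15.9% in replicates 1 to 4, and the gap of replicate 4 to the nearest library was 0.86 of the whole range, above the 95% critical value of Dixon's test for 4 samples. Chance flags about 1 in 20 such groups. With these rows left out of the total, 6 of the 7 cytokine rows still had their lowest TPM in replicate 3.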

How the results depend on the processing

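Both opposite-row ratios kept their direction under every alternative but 1, and those that change only a length add the same constant in each library. The log2 ratio of Gm12534 over Il21 turned to -1.45 as a ratio of counts without length. Its alternative outside the shared bases could not be run, since all its exon bases are shared. Leaving out a replicate gave 8.17 to 8.82 for Gm12223 over Csf2 and 1.82 to 2.16 for Gm12534 over Il21. In the order of levels, Csf2 minus Tnf turned to -0.26 with log2(CPM + 1), where Tnf minus Il21 was -1.56 and Il3 minus Csf2 0.44. Leaving out a replicate moved Csf2 minus Tnf between 0.20 (without replicate 1) and 0.87, Tnf minus Il21 between -0.36 and 0.23 (0.23 without replicate 1, 0.15 without replicate 3) and Il21 minus Lif between -0.085 (without replicate 3) and 0.24. As shares of summed counts, Il2 stood at 57.2%, Il3 at 5.45%, Il21 at 16.3% and Lif at 11.6%, against 68.8%, 11.9%, 4.28% and 3.67% of TPM. Genes varying between replicates numbered 23, and 15 with no filter on low counts, 12 without replicate 3, 7 without replicate 4 (5 also without CT010467.1 and Gm42418, an alternative chosen after seeing the data), and 7 to 20 over all such omissions. Levels in FPKM or CPM per kb were lower than TPM, as the scales differ (Il2 49.01 to 49.7). The cause of other moves was not tested. No paired analysis was possible because there is 1 group. Depth limits Il10, Csf2, Tnf, Gm12534 and Il3, which averaged 11.3 counts or fewer.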
